A study of Mus musculus with 18 samples.

Results

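The epidermal growth factor (EGF) receptor family was followed in mouse embryonic stem (ES) cells and in differentiated cells derived from them, before and after ionizing radiation (IR). The family was taken as 10 genes of the 34304 names on the array, measured by 11 of its 37246 probes: the ligands Ereg, Areg, Hbegf, Btc, Tgfa, Egf and Epgn and the receptors Egfr, Erbb2 and Erbb3. It was chosen by 2 measured values, the rise of Ereg from ES cells to differentiated cells and the change of Areg after IR, so that rise of Ereg and all values of Areg are described without a test. The ES cells were early passage, primary cells kept on gelatin with LIF and without a feeder layer. The ED cells were isogenic non-stem cells obtained from them by culture without LIF. Each cell type was left unirradiated (groups ES and ED) or received 10 Gy. Irradiated cells were collected either after 15 min, as groups ESRE and EDRE, or after 4 h, as ESRL and EDRL. Each group held 3 samples. Differentiation was undirected, with no sort described, so ED cells can be a mixture, and in bulk samples fewer cells of a type cannot be told apart from less RNA per cell. The sources used here do not say whether the 3 samples of a group came from separate cultures, so the p-values measure the spread between these samples, which may be technical.

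EGF receptor ligands are made as membrane proteins, and proteases cut them free. Amphiregulin (Areg), TGFα (Tgfa), EGF (Egf) and epigen (Epgn) bind the EGF receptor, whereas epiregulin (Ereg), betacellulin (Btc) and HB-EGF (Hbegf) also bind ErbB4. ErbB2 has no known ligand of its own and ErbB3 has a weak kinase, and both act by pairing with other receptors of the family. The active receptors signal through Ras and MAP kinases and through PI3 kinase and Akt, with effects on growth, survival and wound repair. The genes Epgn, Ereg, Areg and Btc lie close to each other on mouse chromosome 5.

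The DNA in front of 4 of the genes is shown, for ligand genes of the cluster that moved in different directions between the cell types and for Egfr, the receptor with the largest change. Each stretch covers the 250 bases before the RefSeq transcription start in GRCm38.p6, 5′ to 3′ on the strand of the gene, with matched motifs in capitals.
Areg, chr5:91139349-91139598, plus strand: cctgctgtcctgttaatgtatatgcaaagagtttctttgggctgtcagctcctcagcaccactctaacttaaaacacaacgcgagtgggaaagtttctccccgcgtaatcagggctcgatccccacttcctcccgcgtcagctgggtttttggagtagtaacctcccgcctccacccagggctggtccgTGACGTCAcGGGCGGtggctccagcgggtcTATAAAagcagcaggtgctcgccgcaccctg
Epgn, chr5:91027267-91027516, plus strand: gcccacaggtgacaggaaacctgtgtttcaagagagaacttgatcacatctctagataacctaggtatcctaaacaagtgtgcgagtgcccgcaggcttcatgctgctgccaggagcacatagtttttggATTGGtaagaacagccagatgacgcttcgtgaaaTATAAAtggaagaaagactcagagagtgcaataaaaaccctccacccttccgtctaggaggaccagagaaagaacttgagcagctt
Btc, chr5:91402995-91403244, minus strand: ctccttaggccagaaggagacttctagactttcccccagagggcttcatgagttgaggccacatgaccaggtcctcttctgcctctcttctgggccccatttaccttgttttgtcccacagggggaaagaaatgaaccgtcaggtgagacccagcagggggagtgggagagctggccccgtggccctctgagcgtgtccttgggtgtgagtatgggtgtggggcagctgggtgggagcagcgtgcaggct
Egfr, chr11:16751953-16752202, plus strand: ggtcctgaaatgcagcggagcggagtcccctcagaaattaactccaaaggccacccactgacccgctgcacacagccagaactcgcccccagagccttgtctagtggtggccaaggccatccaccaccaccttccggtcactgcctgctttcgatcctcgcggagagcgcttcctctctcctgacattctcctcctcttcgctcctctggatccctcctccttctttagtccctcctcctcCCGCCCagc
The motifs searched on both strands were the TATA box (TATAAA), the cyclic AMP response element (TGACGTCA), the AP-1 site (TGANTCA), the GC box (GGGCGG) and the CCAAT box (CCAAT). The Areg stretch held a TATA box 31 to 26 bases before the start, a GC box 52 to 47 bases before it and a cyclic AMP response element 61 to 54 bases before it. The Epgn stretch held a TATA box 86 to 81 bases before the start and a CCAAT box on the other strand 120 to 116 bases before it. The Egfr stretch held a GC box on the other strand 9 to 4 bases before the start, and none of these letters were found in the Btc stretch. Over 32851 promoters of this length, the TATA box letters occurred in 12.4%, the cyclic AMP response element in 1.55%, the AP-1 site in 6.75%, the GC box in 32.7% and the CCAAT box in 33.8%. A match of letters is a description and does not show that a factor binds there.

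All expression levels are log2 signals of a probe minus the log2 of the 75th percentile signal of its array, so a level of 0 is a signal at that percentile, and levels of different probes cannot be set against each other. A gene was called changed where limma gave a Benjamini-Hochberg adjusted p under 0.05 over all probes tested and the log2 change was over 1 in size. The arrays were scanned at 6 times, and no group was scanned with its own control, so scan time and group cannot be fully told apart. EDRE replicates 2 and 3 were dim. Their 75th percentile signals were 875 and 1150, where the rest of the arrays had 1950 to 4270. Of their spots, 24.4% and 23.8% carried outlier marks, where the rest had 3.33% to 11.1%. Of 10 ES cell markers tested, 9 were lower in ED cells, among them Pou5f1 and Nanog, and Klf4 showed a change of 0.05. Of 11 fibroblast or mesenchyme markers tested, 9 were higher in ED cells and Thy1 was lower, and of 9 epithelium and keratinocyte markers, 7 were lower and Trp63 was higher. The log2 of the summed level of the epithelial markers was 7.87 to 8.14 in ES cells and 3.68 to 5.56 in ED cells, and that of the mesenchymal markers 5.96 to 6.24 and 8.96 to 9.27. The part of this difference in cell type in the changes of the EGF receptor family was not tested.

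**Figure D1:**
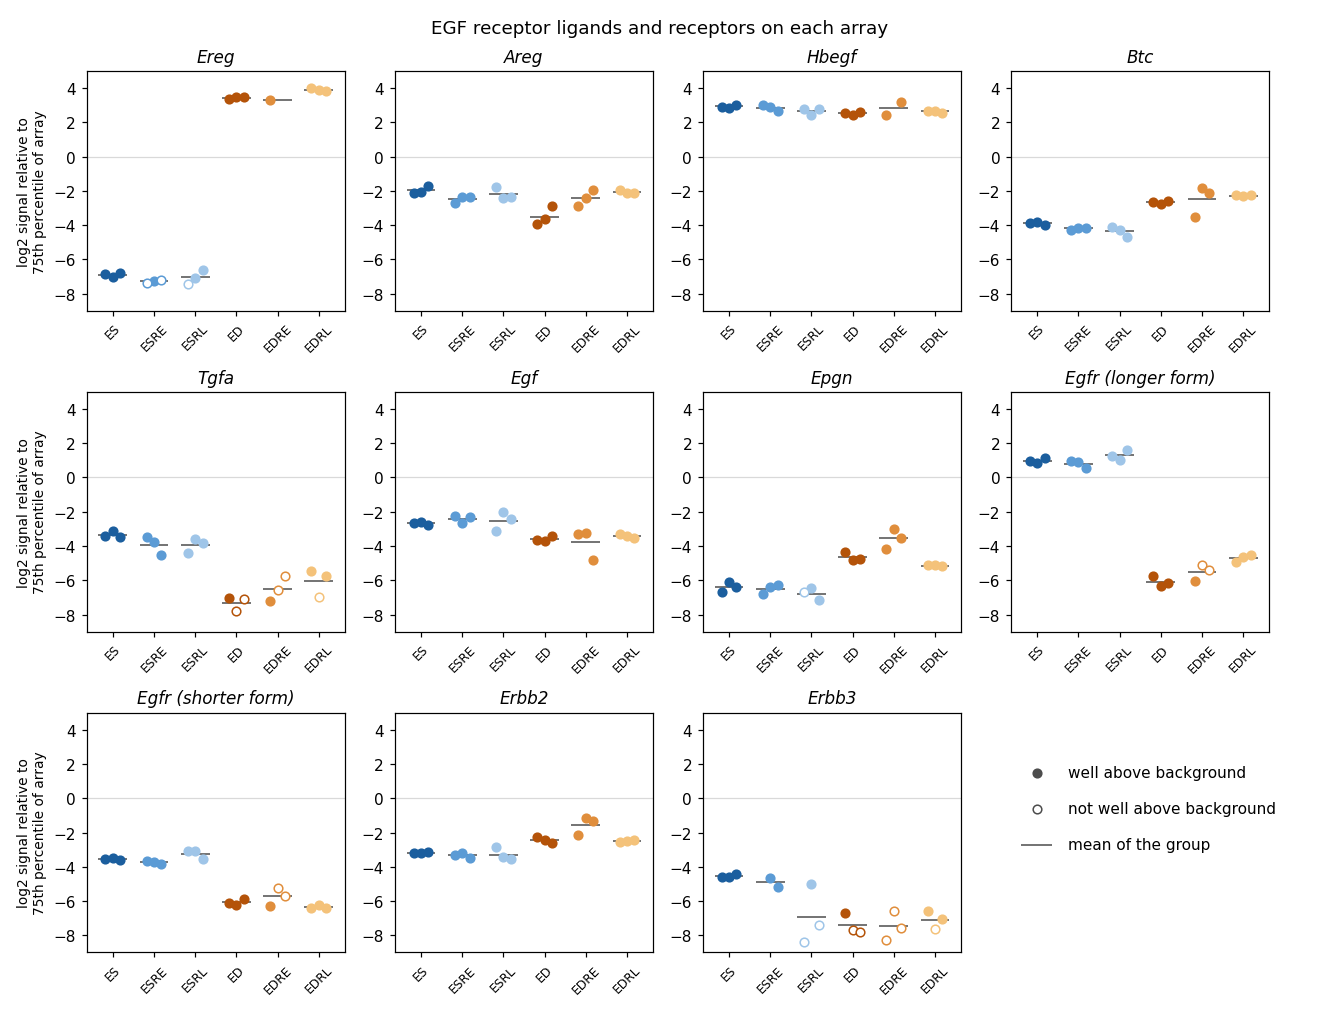
Level of each EGF receptor ligand and receptor probe on each of the 18 arrays (vertical axis: log2 signal over the 75th percentile signal; horizontal axis: group). Points are samples, filled where the probe was well above background, and lines are group means. For Ereg, Btc, Tgfa, Egf, Epgn, Egfr (both forms) and Erbb2 the ES groups are apart from the ED groups on every array with a value. For Areg, Hbegf and Erbb3 they overlap. In ED against ES alone, 71.2% of all probes measured on all arrays did not overlap.

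Epiregulin, a ligand known from inflammation and the ovary, separated the cell types. The Ereg probe gave levels of -6.84, -7.04 and -6.80 in ES, and 3.38, 3.48 and 3.47 in ED. All 3 ED samples lay far above all 3 ES samples, a difference of 10.34 on the log2 scale or 1290-fold, which is the value that chose the family. The irradiated samples were not used for that choice. In ESRE the levels were -7.36, -7.28 and -7.22, and the probe was well above background on 1 of the 3 arrays. In EDRE, replicate 1 gave 3.28, and the spots of replicates 2 and 3 were marked as outliers and left out. With those spots kept they read 3.61 and 3.50. Ereg was higher in EDRE than in ESRE by 10.56 (n = 1 and 3). This value comes from a single EDRE sample, and its size rests on ESRE spots mostly not well above background. In ESRL the levels were -7.42, -7.11 and -6.59, well above background on 2 of 3 arrays, and in EDRL they were 4.01, 3.88 and 3.81. Ereg was higher in EDRL than in ESRL by 10.94 (n = 3 per group). At each time Ereg passed the detection filter only through the ED cells, where it was high, and its rise without IR chose the family. Both differences are therefore described here without a test. The groups did not overlap at 15 min or 4 h, as for 57.6% and 68.2% of probes.

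IR moved Ereg by less than the limit in both cell types. The change was -0.39 ± 0.19 in ES cells at 15 min and -0.15 ± 0.19 at 4 h. In ED cells it was -0.17 ± 0.26 at 15 min and 0.45 ± 0.19 at 4 h (SE; limma). These changes have as baseline the ES and ED samples whose difference chose the family, so they are given as a description. Ereg is still included in the counts of members tested after IR below. All 3 EDRL samples lay above all 3 ED samples, which was also the case for 44.6% of probes in either direction in that comparison.

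Amphiregulin, a ligand often induced by stress and by cyclic AMP, had the reverse order to Ereg in unirradiated cells. Its levels were -2.12, -2.07 and -1.70 in ES and -3.93, -3.65 and -2.91 in ED, with no overlap, as for 71.2% of the probes measured on all arrays. The mean of ED was lower by 1.53 on the log2 scale, a difference of -1.53, which became -0.89 with arrays scaled to their median. The change of Areg after IR chose the family and has these ES and ED samples as its baseline, so all values of Areg are described without a test. Irradiated ED cells read -2.87, -2.43 and -1.95 in EDRE and -1.96, -2.10 and -2.13 in EDRL. These 6 samples lay above the 3 ED samples, with differences of the means of 1.08 at 15 min and 1.44 at 4 h (25.4% and 44.6% of all probes did not overlap). EDRE replicate 1, at -2.87, was only just above the highest ED sample, at -2.91. Without the dim EDRE replicates 2 and 3 the difference at 15 min was 0.63. Irradiated ES cells read -2.68, -2.34 and -2.36 in ESRE and -1.78, -2.40 and -2.34 in ESRL. The ESRE samples lay below the ES samples, with a difference of -0.50 (35% of all probes did not overlap), and the ESRL samples overlapped them, with a difference of -0.21 that became 0.10 with arrays scaled to their median. In order of their means the groups were ES, EDRL, ESRL, EDRE, ESRE and ED, at -1.96, -2.06, -2.17, -2.42, -2.46 and -3.50. Neighbors in this order overlapped, except that ED lay below ESRE. After IR the means of the cell types differed by 0.04 at 15 min and by 0.11 at 4 h. These small differences depended on the scaling, and with arrays scaled to their median they were 0.76 and 0.60, higher in ED cells.

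Without Ereg and Areg, 5 of 8 members changed in ED against ES, 2 of them higher (Btc and Epgn) and 3 lower (Tgfa, Egfr and Erbb3). With Areg, whose samples the choice of the family used, the count was 6 of 9. These counts are to be read against 41.5% of all genes tested in this comparison, 14.9% higher and 26.6% lower. Tgfa and Erbb3 passed the detection filter only through ES, where they were high. With probes well above background in both groups, Btc, Epgn and Egfr were called. The median change over the 10 members was -0.64, and over all probes -0.19. On the separate arrays after IR, 8 of 9 members tested changed between the cell types at 15 min, 4 higher and 4 lower (46.6% of all genes, 18.6% higher and 28% lower). At 4 h it was 5 of 8, 3 higher and 2 lower (49.4% of all genes, 24.5% higher and 25% lower). These counts leave out Areg but include Ereg, higher at both times, whose rise without IR chose the family. They are therefore not counts of the same members as those without IR. Here too some members passed the detection filter only through the group where they were high. At 15 min these were Ereg, Tgfa, Egfr and Erbb3, and at 4 h Ereg, Tgfa and Epgn. With probes well above background in both groups, 4 members were called at 15 min and 2 at 4 h.

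**Figure D2:**
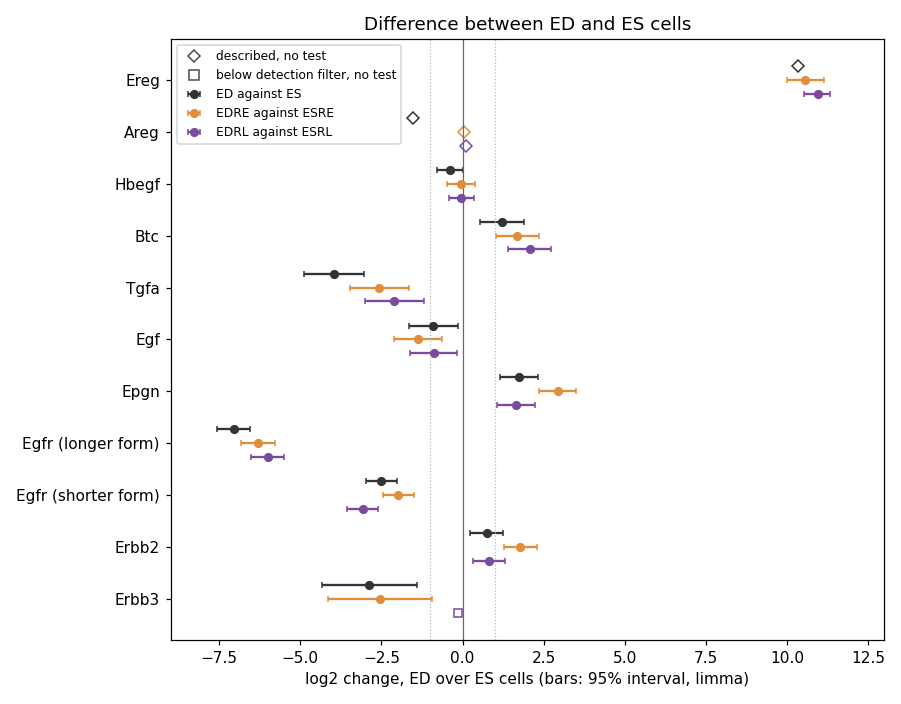
Difference between ED and ES cells for each probe (horizontal axis: log2 change, ED over ES cells) without IR and in the cells collected 15 min and 4 h after 10 Gy. Filled points have 95% intervals from limma, open diamonds are values of Ereg and Areg given without a test, the open square is a probe under the detection filter and dotted lines mark a log2 change of 1; Ereg lies above 10 and the longer form of Egfr at or below -6 in all 3.

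Btc and Epgn, of the same chromosome 5 cluster, were higher in ED, by less than Ereg. Betacellulin read -3.88, -3.82 and -3.97 in ES and -2.67, -2.74 and -2.59 in ED, with no overlap (as for 71.2% of probes), a rise of 1.22 ± 0.32 (SE, n = 3 per group; limma, adjusted p = 0.00432). It was also higher in EDRE than in ESRE by 1.69 ± 0.31 and in EDRL than in ESRL by 2.07 ± 0.31 (adjusted p = 0.000275 and 4.05e-05), where EDRE replicate 1 at -3.54 lay apart from -1.82 and -2.13 of the dim replicates. Without those dim replicates the Btc difference at 15 min was 0.65, under the limit. With scan time as a random block, the Btc rise in ED against ES had an adjusted p of 0.0513.

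Epigen, a ligand of low affinity, read -6.66, -6.08 and -6.39 in ES and -4.33, -4.83 and -4.75 in ED. The rise was 1.74 ± 0.27 (SE, n = 3 per group; limma, adjusted p = 7.22e-05), without overlap, as for 71.2% of probes. Epgn was higher in EDRE than in ESRE by 2.93 ± 0.27 and in EDRL than in ESRL by 1.64 ± 0.27 (adjusted p = 2.27e-07 and 9.21e-05). With a model-based background correction (normexp) the rises in ED against ES and in EDRL against ESRL were 0.87 and 0.75, under the limit.

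**Figure D3:**
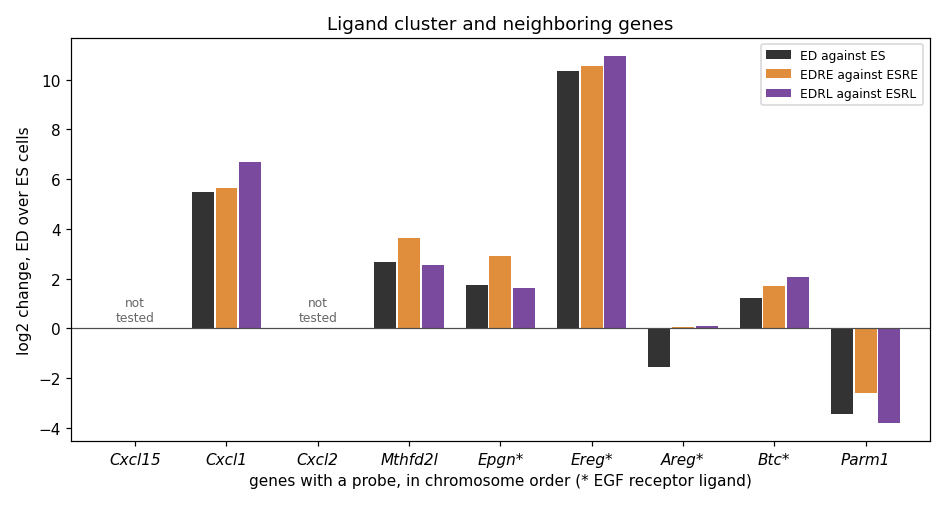
Difference between ED and ES cells (vertical axis: log2 change) for genes with a probe in and around the ligand cluster, in chromosome order, without IR and at 15 min and 4 h after 10 Gy. Bars are limma estimates or, for Ereg without IR and for Areg, values given without a test; Cxcl15 and Cxcl2 were under the detection filter, and Areg and Parm1 are the genes with a bar under 0 in ED against ES.

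Genes next to the cluster also differed between the cell types. Cxcl1, a neutrophil-attracting chemokine, was higher in ED by 5.49 ± 0.17 and Mthfd2l, a mitochondrial folate enzyme, by 2.69 ± 0.34 (SE, n = 3 per group; limma, adjusted p = 3.28e-11 and 9.41e-06). Parm1, on the side of Btc, was lower by 3.42 on the log2 scale, a change of -3.42 ± 0.43 (adjusted p = 7.2e-06). Cxcl2 was not well above background on any array. In RefSeq order the genes with a probe were Cxcl15, Cxcl1, Cxcl2, Mthfd2l, Epgn, Ereg, Areg, Btc and Parm1, so Areg, lower in ED, lay between Ereg and Btc, both higher.

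TGFα, a ligand known from transformed and epithelial cells, was lower in ED. Tgfa read -3.40, -3.13 and -3.50 in ES and -7.05, -7.82 and -7.07 in ED, where it was well above background on 1 of 3 arrays. The change was -3.97 ± 0.43 (SE, n = 3 per group; limma, adjusted p = 1.55e-06), a size that rests on ED spots mostly not well above background. It was lower in EDRE than in ESRE by 2.57 on the log2 scale, a change of -2.57 ± 0.42, and in EDRL than in ESRL the change was -2.11 ± 0.43 (adjusted p = 0.000103 and 0.000559). With normexp the value at 15 min was -0.09, and with scan time as a random block the one at 4 h was -1.53 with an adjusted p of 0.0849.

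EGF itself and HB-EGF, which is also the diphtheria toxin receptor, differed less between the cell types. Egf read -2.66, -2.61 and -2.79 in ES and -3.63, -3.71 and -3.41 in ED, with no overlap, as for 71.2% of probes. Its change of -0.90 ± 0.35 was under the limit of 1 (SE; limma, adjusted p = 0.0421), and in EDRE against ESRE it was -1.38 ± 0.34 (adjusted p = 0.0032). With arrays scaled to their median these changes were -0.25 and -0.66 (adjusted p = 0.54 and 0.101). Hbegf was well above background on all 18 arrays, with levels of 2.43 to 3.16. Its change in ED against ES was -0.39 ± 0.18, with a 95% interval of -0.79 to 0.00 (adjusted p = 0.0919), and it was 0.25 with arrays scaled to their median.

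The receptor genes Egfr and Erbb3 were lower in ED, and Erbb2 was not. The array has a probe for each of 2 Egfr transcripts, NM_207655 for the full-length receptor kinase (the longer form) and NM_007912 for a shorter form without the kinase. The longer form read 0.93, 0.86 and 1.15 in ES and -5.76, -6.33 and -6.15 in ED. Each ED sample was far below each ES sample, a change of -7.06 ± 0.24 or 133-fold lower (SE, n = 3 per group; limma, adjusted p = 7.28e-12). The shorter form went from a mean of -3.56 ± 0.05 in ES to -6.07 ± 0.18 in ED (SD, n = 3), a change of -2.50 ± 0.22 (SE; adjusted p = 1.76e-07). After IR the longer form read 0.97, 0.89 and 0.52 in ESRE and -6.03, -5.10 and -5.39 in EDRE, well above background on 1 EDRE array, and 1.23, 1.02 and 1.61 in ESRL and -4.94, -4.67 and -4.54 in EDRL. The cell types again did not overlap, as for 57.6% of probes at 15 min and 68.2% at 4 h. The change was -6.30 ± 0.24 between the groups of the 15 min time (limma, adjusted p = 1.43e-11) and -6.0 ± 0.24 between those of the 4 h time (adjusted p = 2.17e-11). Both probes kept their call in ED against ES in all 15 alternative settings and on leaving out each of the 18 arrays. Values for the longer form ran from -7.22 to -4.78, where -4.78 is the value with both Egfr probes averaged.

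Erbb3, the partner receptor with a weak kinase, was lower in ED. It read -4.53 ± 0.11 in ES and -7.40 ± 0.61 in ED (SD, n = 3), where 1 of 3 arrays was well above background. The change was -2.87 ± 0.67 (SE; limma, adjusted p = 0.00255), and with scan time as a random block the adjusted p was 0.102. As for Tgfa, the size rests on dim ED spots. In EDRE no array was well above background, and the spot of ESRE replicate 1 was marked as an outlier and left out. Erbb3 was at least 2.67-fold lower in EDRE than in ESRE (n = 3 and 2), a bound set from the dimmest signals that counted as well above background. With normexp this difference was 0.25. Erbb2, the receptor without a ligand, read -3.17 ± 0.05 in ES and -2.43 ± 0.15 in ED (SD, n = 3), with no overlap, as for 71.2% of probes. Its rise of 0.74 ± 0.24 was under the limit (SE; limma, adjusted p = 0.0173) and was 1.38 with arrays scaled to their median (adjusted p = 0.000231). In EDRE it was higher than in ESRE by 1.78 ± 0.23 (adjusted p = 1.14e-05), and in EDRL than in ESRL by 0.81 ± 0.24 (adjusted p = 0.00768, under the limit).

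Median scaling moved the whole comparison of ED against ES. It shifted all changes by 0.64, so that 6979 genes were higher and 4877 lower in place of 3907 and 6999. The direction of Ereg, Btc, Epgn, Tgfa, Egfr and Erbb3 did not depend on it, that of Hbegf did.

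**Figure D4:**
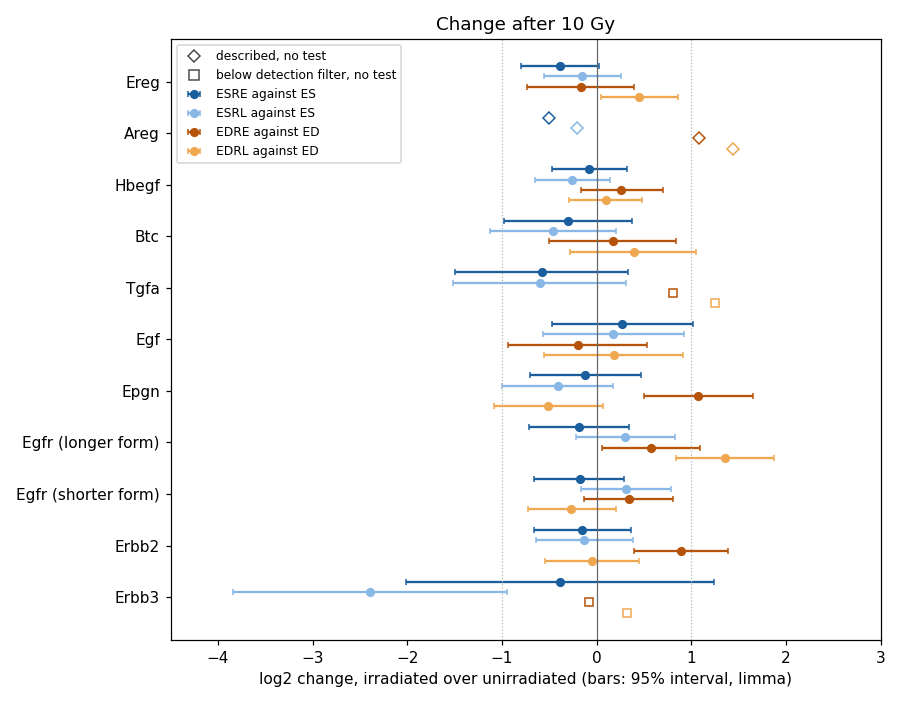
Change after 10 Gy for each probe (horizontal axis: log2 change, irradiated over unirradiated cells of the same type) at 15 min (ESRE and EDRE) and 4 h (ESRL and EDRL). Filled points have 95% intervals from limma, open diamonds are values of Areg given without a test, open squares are probes under the detection filter and dotted lines mark a log2 change of 1; Epgn in EDRE, Egfr in EDRL and Erbb3 in ESRL are the tested probes past a line.

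The ES cells showed little change of the family after IR. At 15 min none of 9 members tested changed by limma (0.462% of all genes did). None had an unadjusted p under 0.05, where 2517 of 25538 genes did, and the methods' t-test called none. At 4 h Erbb3 was the 1 of 9 that changed (7.58% of all genes, 6.89% lower). It read -4.62, -4.58 and -4.40 in ES and -8.36, -5.02 and -7.40 in ESRL, a change of -2.39 ± 0.67 (SE, n = 3 per group; limma, adjusted p = 0.0426). ESRL replicate 2 was near the ES samples and the other ESRL samples were not well above background. The call was lost on leaving out any 1 of 14 of the 18 arrays, with a change of -1.68 without ESRL replicate 1, which was scanned alone. The call was kept without ESRE replicate 1, ESRL replicate 2, EDRE replicate 1 or EDRE replicate 2.

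In ED cells 1 of 7 members tested changed at each time. At 15 min (5.18% of all genes, 2.23% higher) it was Epgn, with -4.16, -3.02 and -3.51 in EDRE, all above the ED samples (25.4% of probes did not overlap), a rise of 1.07 ± 0.27 (SE, n = 3 per group; limma, adjusted p = 0.0335). The largest values were those of the dim replicates 2 and 3, and without both the rise was 0.47 (adjusted p = 0.577). The call was also lost without ED replicate 1, ED replicate 2, ED replicate 3, EDRE replicate 2, EDRE replicate 3 or EDRL replicate 2, with rises of 0.80 to 1.23. Erbb2 had the same shape, with -2.17 in replicate 1 and -1.15 and -1.31 in the dim replicates, and its rise of 0.89 ± 0.23 (adjusted p = 0.038) was under the limit. Without EDRE replicate 1 it was 1.20 and past it.

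At 4 h (1.65% of all genes, 1.4% higher) the member that changed was Egfr, by its longer form. All 3 EDRL samples, given above, lay over all 3 ED samples (44.6% of probes did not overlap), a rise of 1.36 ± 0.24 (SE, n = 3 per group; limma, adjusted p = 0.00618), to a level that was still below that of ES cells. The probe of the shorter form changed by -0.27 ± 0.22 (adjusted p = 0.667). The rise was called without each of the 18 arrays in turn, but not with normexp (0.90), with the Egfr probes averaged (0.55) or with scan time as a random block (1.49, adjusted p = 0.291). Within the scan that held the EDRL samples and EDRE replicate 1, EDRL was higher by 1.31. Tgfa, under the detection filter in both ED and EDRL, read -5.47, -6.96 and -5.75 in EDRL, above the ED samples.

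The response to IR did not differ past the test between ED and ES cells for any member tested. None of 9 was called by limma at 15 min or at 4 h (2.09% and 1.16% of all genes). An unadjusted p under 0.05 was found for 5005 of 25793 genes at 15 min and for 4168 of 26036 at 4 h. Among the members, 4 had one at each time. At 15 min these were Tgfa, Epgn, Egfr and Erbb2 with differences of 1.40, 1.19, 0.76 and 1.04, and all 4 were called without EDRE replicate 1. At 4 h they were Ereg, Tgfa, Egfr and Erbb3 with differences of 0.60, 1.86, 1.06 and 2.71, and Erbb3 was called without ESRL replicate 2, at 3.67. Tgfa and Erbb3 were under the detection filter in ED, EDRE and EDRL. The difference for Ereg has as baseline the ES and ED samples that chose the family.

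Among the other ligands and receptors of the ErbB family, neuregulins bind ErbB3 and ErbB4. Erbb4 and Nrg3 were not well above background on any array. Nrg4 was at -2.19 in ES and -7.85 in ED, a change of -5.66 ± 0.65 (SE, n = 3 per group; limma, adjusted p = 3.11e-06), and well above background on 1 ED array. For Nrg1 the change was -0.24 ± 0.21 (adjusted p = 0.375). At 4 h after IR it rose in ED cells by 1.57 ± 0.20 (adjusted p = 0.000425), and the change in ED cells exceeded that in ES cells by 1.61 ± 0.29 (adjusted p = 0.0161).

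The list of proteins of ligand release holds sheddases and their escorts, other metalloproteases and metalloprotease inhibitors. Of 12 tested, 7 were higher in ED and 2 lower, beside 14.9% and 26.6% of all genes, with a median change of 1.35 against -0.19 over all probes. Adam10, a sheddase of EGF and betacellulin, rose by 1.35 ± 0.22, and Adam9 by 2.59 ± 0.29 (SE, n = 3 per group; limma, adjusted p = 0.000162 and 1.03e-05). Adam12, a sheddase of HB-EGF, rose by 4.58 ± 0.21 and Rhbdf1, an iRhom that escorts Adam17, by 1.27 ± 0.23 (adjusted p = 8.3e-10 and 0.000834). Adam17, the main sheddase of Areg, Ereg and Tgfa, changed by 0.27 ± 0.25 (adjusted p = 0.421). The other members that rose were not sheddases of the ADAM kind: Timp2 and Timp3, inhibitors of metalloproteases, rose by 5.41 ± 0.16 and 4.34 ± 0.43 (adjusted p = 2.01e-11 and 6.55e-06), and Mmp3, not well above background on any ES array, was at least 131-fold higher. Adam19 and Mmp9 were lower, at -1.92 ± 0.30 and -2.67 ± 0.29 (adjusted p = 6.86e-05 and 1.84e-06).

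Of 20 adaptors and core signaling genes tested, 4 were higher in ED and 1 lower (14.9% and 26.6% of all genes), with a median change of 0.12. Braf, a kinase upstream of MAP kinases, changed by 0.04 ± 0.24 (SE, n = 3 per group; limma, adjusted p = 0.916). Gab1, a docking protein that links the receptors to PI3 kinase, fell with a change of -4.40 ± 0.26 (adjusted p = 2.63e-07), and Gab2, its relative, rose by 1.20 ± 0.38 (adjusted p = 0.0152). Of 21 negative regulators tested, 4 were higher and 4 lower, where 14.9% and 26.6% of all genes were, with a median change of 0.03. Socs5, which promotes loss of the EGF receptor, rose by 3.83 ± 0.15, and Cblc, a ubiquitin ligase of the receptor, fell with a change of -6.36 ± 0.40 (adjusted p = 2.33e-10 and 3.76e-09). Brakes on Ras and MAP kinases went both ways: Dusp7 and Spred1 rose by 1.69 ± 0.17 and 1.07 ± 0.24 (adjusted p = 4.74e-06 and 0.00199), and Spry4 and Dusp4 fell with changes of -2.93 ± 0.20 and -1.73 ± 0.17 (adjusted p = 6.2e-08 and 9.1e-07).

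Of 23 genes known to be induced by EGF receptor signaling, 10 were higher in ED and 3 lower (14.9% and 26.6% of all genes), with a median change of 0.55. Fosl1, an AP-1 subunit, rose by 5.27 ± 0.22, Jun by 3.31 ± 0.19 and Ptgs2, the inducible cyclooxygenase, by 5.43 ± 0.69 (SE, n = 3 per group; limma, adjusted p = 1.23e-09, 9.06e-09 and 5.45e-05). The interleukin gene Il6 rose by 5.0 ± 0.24 and Hmga2 by 4.63 ± 0.22 (adjusted p = 1.38e-09 and 5.75e-10). Fos, Etv5 and Dkk1 fell, with changes of -2.91 ± 0.25, -1.16 ± 0.29 and -2.86 ± 0.18 (adjusted p = 2.53e-07, 0.0092 and 3.87e-09). These genes also answer to other signals, and whether the EGF receptor drove them was not measured.

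After IR, 3 of 24 tested members of that list rose in ED cells at 15 min and 2 of 22 at 4 h, beside 2.23% and 1.4% of all genes. Fos rose by 1.73 ± 0.28 and 1.55 ± 0.25, Egr1, an immediate early gene, by 1.68 ± 0.24 at 15 min, and Klf6 by 1.17 ± 0.24 at 15 min (SE; limma, adjusted p = 0.00639, 0.00341, 0.00292 and 0.0171). Egr2 rose by 1.03 ± 0.17 at 4 h (adjusted p = 0.00582). In ES cells Fosl1 was the 1 of 22 that rose at 4 h (0.69% of all genes), by 1.06 ± 0.19 (adjusted p = 0.00804). At 15 min the change in ED cells exceeded that in ES cells by 1.76 ± 0.38 for Fos, 1.45 ± 0.34 for Egr1 and 1.62 ± 0.35 for Klf6 (adjusted p = 0.0342, 0.0454 and 0.0332). All these 15 min values in ED cells include the dim EDRE replicates 2 and 3. Whether they hold without those replicates is not given here.

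The genes whose centred levels were nearest to those of Ereg and Areg were looked up among 8896 genes. For Ereg, over 16 arrays, they were Ogn, Gpr149 and Pcdh7, with root mean square differences of 0.71, 1.09 and 1.12 on the log2 scale. None of these 3 was well above background on an ES array, and their ED means were 0.78, 2.26 and 0.46. For Areg, over all 18 arrays, they were Cenpm, Sytl2 and Bax, with differences of 0.28, 0.31 and 0.32. Bax, a pro-apoptotic member of the Bcl-2 family, was at 3.99 in ES, 3.1 in ED, 4.23 in EDRE and 3.96 in EDRL. Since these genes were picked for likeness, no test was made.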

How the data were processed

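Total RNA was labeled with Cy3 and hybridized to 18 one-color Agilent arrays, 1 per sample. The authors deposited scanner intensity values, in which the processed signal has had background subtracted and no scaling across arrays (Agilent Feature Extraction 9.1 per the labels, 10.7.3.1 per the file headers). The authors also deposited log2 values for 30133 probes, which the files show to be the log2 signal, with a floor of 5, minus a constant of each array, with column medians of 0.57 to 0.72. Its direction is that of the signal, and it was used as an alternative.

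Of 39448 spots per array, 1417 control spots and 200 unmarked negative controls were left out, which left 37246 probes, 22201 of them named from RefSeq through their accession. Spots marked as outliers were left out, and the log2 of each array's 75th percentile signal was subtracted from its log2 signals. To be tested in a comparison, a probe had to exceed background clearly on every array of 1 or more of the groups compared. All 18 arrays entered a single linear model with 6 group means (limma 3.58.1, R 4.3.3). An array had 49.5% to 86.1% of its probes well above background. Precision is limited by how many arrays there are. Calls across genes and their share of all genes tested were made in the same way. The code was tested on simulated data.

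The members and lists were chosen with earlier results of these data known. Named genes were all members, genes with a probe in the ligand cluster or within 5 genes of it, the 3 genes most like Ereg and Areg, and examples from the lists of other ErbB genes, ligand release, adaptors, negative regulators and induced genes, the last picked after their values were seen. A gene with several probes is given by the brightest one. Promoters came from RefSeq for 7 of the 10 members (GRCm38.p6). Besides the markers named in the text, lists of extraembryonic endoderm, trophoblast, blood, endothelium and neural markers were tested, with 5 of 6, 7 of 8, 4 of 6, 6 of 6 and 1 of 6 lower in ED and 0, 0, 1, 0 and 1 higher. In all, 15 alternative settings and 18 fits without 1 array were run.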

Additional observations from a re-analysis of the deposited data

Results flagged for a closer look

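The change of Areg at 15 min after IR went opposite ways in the cell types. Each EDRE sample lay above all ED samples, though replicate 1, at -2.87, was only just above the highest ED sample, at -2.91. Each ESRE sample lay below all ES samples. Over all probes, 25.4% did not overlap in EDRE against ED and 35% in ESRE against ES. The change of Areg in ED cells minus that in ES cells was 1.58 on the log2 scale. Areg after IR was among the values that chose the family, so the difference was not tested. With arrays scaled to their median or to quantiles, with normexp and without EDRE replicates 2 and 3, it kept its sign, with the lowest value of 1.13 in the fit without those replicates.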

How the results depend on the processing

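Of the members' probes called in ED against ES, Egfr by both probes and Tgfa were called under every setting that tested them. The number of members changed moved as follows, and the cause was not tested unless the setting itself tests fewer probes or samples. In ED against ES these counts take in Areg beside the members counted above. Since the choice of the family used its samples, they only describe the settings. For ED against ES, 6 became 4 with the scan block or with probes well above background in all groups compared, and was 5 with normexp, 7 with quantile normalization, 8 with no fold limit and 6 with the others. For ESRL against ES, 1 became 0 with normexp, quantile normalization, no filter, probes well above background in all groups compared, scan time as a random block, the replicate block, the groups compared fitted alone, the methods' t-test before and after Benjamini-Hochberg adjustment, and the authors' value table. For EDRE against ED, 1 became 3 with normexp, 2 with median scaling, no fold limit or the authors' table, and 0 with the scan block, the groups fitted alone, the methods' t-test after adjustment, or without EDRE replicates 2 and 3. For EDRL against ED, 1 became 0 with normexp, the scan block or 1 value per gene. For EDRE against ESRE, 8 became 6 with the scan block or without EDRE replicates 2 and 3, 5 with normexp or the methods' t-test after adjustment and 4 with probes well above background in all groups, where EDRL against ESRL went from 5 to 2. Erbb3 in EDRE against ESRE reversed with normexp, at 0.25. Leaving out 1 array gave 6 to 6 members in ED against ES, 0 to 0 in ESRE against ES, 0 to 1 in ESRL against ES, 0 to 2 in EDRE against ED, 1 to 1 in EDRL against ED, 7 to 8 in EDRE against ESRE, 5 to 7 in EDRL against ESRL, and for the difference in response 0 to 4 at 15 min and 0 to 1 at 4 h. Of 65 values not called or not tested, 12 passed under some alternative, among them Erbb2 in ED against ES, at 1.26 with quantile normalization.

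Replicate numbers did not pair the samples: 4 of 21 same-numbered pairs had a correlation over 0.1, from -0.434 to 0.304, and an array correlated best with its own number in 9 of 30 cases. With the replicate block, Erbb3 in ESRL against ES had a change of -2.39 with an adjusted p of 0.0592, and it moved no other count of members. The methods' t-test was not run for differences in response. Signal over background limits Tgfa, Erbb3 and Epgn, and Ereg in ES cells. The correlation within scan time was 0.642.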
